A study of Mus musculus with 12 samples.

Results

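Single mouse embryos at embryonic day 7.0 were ranked by their level of Prl3d1, placental lactogen I of trophoblast giant cells, and the 4 embryos of highest level were compared with the 4 of lowest level, 8 of the 12 embryos in the series. The embryos were chosen by this measured value alone. All 12 were untreated, wild type and of the C57BL/6J strain, each library came from 1 whole embryo, and the 5 females and 7 males belonged to 7 litters. The 4 embryos of highest Prl3d1 were males 2 and 3 of litter 3, male 5 of litter 6 and male 4 of litter 5. The 4 of lowest Prl3d1 were female 5 of litter 9, male 6 and female 3 of litter 6 and female 2 of litter 4. Female 1 of litter 3, male 7 of litter 9, male 1 of litter 2 and female 4 of litter 8 ranked between them. Sex was therefore unequal, with 4 males in the high group and 3 females and 1 male in the low group. Values below are normalized counts, the fragments per gene scaled by the authors for sequencing depth. Sets of 4 values run in order of Prl3d1: males 2, 3, 5 and 4 in the high group, female 1, male 7, male 1 and female 4 in the middle, and female 5, male 6, female 2 and female 3 in the low group. No file measured the amount of trophoblast tissue, so the groups are named by their Prl3d1 alone.

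Trophoblast giant cells are the large polyploid cells that line the implantation site outside the parietal yolk sac. They invade the decidua, open maternal blood spaces and secrete hormones of the prolactin family, many of which are encoded in a cluster on mouse chromosome 13. Behind them the ectoplacental cone holds diploid trophoblast, from which further giant cells arise. Neither tissue is part of the embryo proper, and the labels do not say how closely each conceptus was trimmed.

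Prl3d1 lies at chr13:27094190-27100258 on the plus strand (GRCm38). It was at 54012, 35386, 27489 and 22555 in the high and 7357, 5620.1, 2202 and 1336 in the low embryos. The middle embryos were at 15735, 14068, 10646 and 8866. The last embryo inside the high group was at 22555 and the first outside it at 15735, and at the other edge 8866 lay outside the low group and 7357 inside it. The ranking therefore divided a graded series and not separate clusters. Group means were 34860.4 ± 13818 in the high, 12329 ± 3133 in the middle and 4129 ± 2838 in the low embryos (SD, n = 4 each), an 8.44-fold difference between high and low that the ranking itself made and that carries no test.

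The neighbouring copies Prl3d2 and Prl3d3 share 98.4% and 98.5% of aligned transcript bases with Prl3d1, so that reads can be assigned to the wrong copy. Prl3d2 was at 3327, 2473, 1731 and 1884 in the high and 456, 416, 202 and 83.9 in the low embryos, where the groups did not overlap. Prl3d3 was at 1703, 1311, 691 and 768 in the high and 266, 178, 111 and 52.6 in the low embryos. Both fell from group to group with the ranking gene, and they are described with no test for the same reason. Upstream sequences of the copies and of 2 genes that rose with them are shown because they place the ranking gene beside its likeness in sequence. Each is the run of 250 bases before the RefSeq start site in GRCm38.p6, 5′ to 3′ on the gene's strand, and capitals mark matches on either strand to a GATA motif (TGATAA or AGATAA) and to an AP-1 motif (TGANTCA). In mouse trophoblast cells GATA2, GATA3 and AP-1 are known activators of the Prl3d1 promoter.
Prl3d1, chr13:27093939-27094188, plus strand: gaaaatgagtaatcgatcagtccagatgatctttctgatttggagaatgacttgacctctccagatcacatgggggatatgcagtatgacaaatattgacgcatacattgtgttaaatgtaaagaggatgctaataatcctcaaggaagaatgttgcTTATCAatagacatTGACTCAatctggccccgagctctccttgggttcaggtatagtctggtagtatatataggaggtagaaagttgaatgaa
Prl3d2, chr13:27121445-27121694, plus strand: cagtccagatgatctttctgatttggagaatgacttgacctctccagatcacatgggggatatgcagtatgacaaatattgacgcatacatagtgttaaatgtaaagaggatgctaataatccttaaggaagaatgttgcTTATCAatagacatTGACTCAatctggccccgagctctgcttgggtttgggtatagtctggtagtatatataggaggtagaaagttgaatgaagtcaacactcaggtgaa
Prl3d3, chr13:27156544-27156793, plus strand: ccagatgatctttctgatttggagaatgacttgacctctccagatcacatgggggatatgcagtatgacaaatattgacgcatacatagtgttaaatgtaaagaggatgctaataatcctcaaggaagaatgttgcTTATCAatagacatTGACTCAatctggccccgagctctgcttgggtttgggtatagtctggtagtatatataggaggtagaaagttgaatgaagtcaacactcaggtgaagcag
Prl7a1, chr13:27642494-27642743, minus strand: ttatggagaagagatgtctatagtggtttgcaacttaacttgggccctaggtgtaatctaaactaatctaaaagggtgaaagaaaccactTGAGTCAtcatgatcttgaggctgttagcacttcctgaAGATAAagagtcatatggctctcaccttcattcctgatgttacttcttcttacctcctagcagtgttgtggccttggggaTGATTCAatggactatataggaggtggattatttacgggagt
Adm, chr7:110627407-110627656, plus strand: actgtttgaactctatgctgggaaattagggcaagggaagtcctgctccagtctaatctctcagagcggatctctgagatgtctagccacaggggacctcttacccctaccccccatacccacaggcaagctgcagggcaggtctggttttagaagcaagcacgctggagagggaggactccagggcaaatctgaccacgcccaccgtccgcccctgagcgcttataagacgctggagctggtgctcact
The windows of Prl3d1 and its copies were 97.9% and 98.3% identical and shared 1 GATA match and 1 AP-1 match at the same spacing. Prl7a1 held 1 GATA match and 2 AP-1 matches, and Adm held neither motif in this window. Over 31396 autosomal promoter windows, 16.5% held the GATA motif and 6.77% the AP-1 motif. Among the 94 windows found for 72 of the genes that rose with Prl3d1 the shares were 16% and 11.7%, given as a description with no test.

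**Figure D1:**
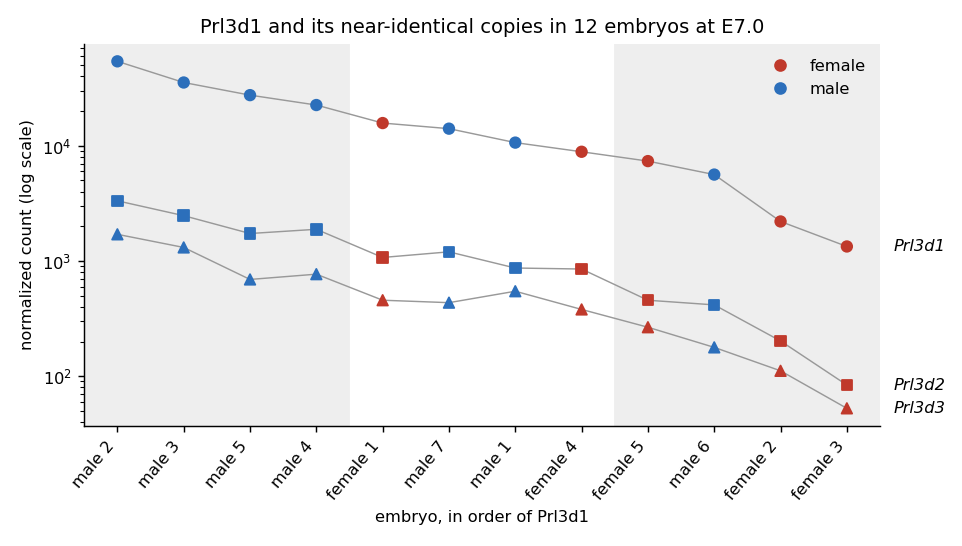
Normalized counts (log axis) of Prl3d1, Prl3d2 and Prl3d3 in the 12 embryos, in order of Prl3d1; points are single embryos coloured by sex and shading marks the high and low groups. The 3 lines fall together from left to right, with males 2, 3, 5 and 4 at the left and females 2 and 3 at the right.

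The comparison addressed which transcripts go with Prl3d1. In the comparison of 4 against 4 embryos by limma, none of 15451 autosomal genes passed a Benjamini-Hochberg adjusted p of 0.05 in either direction (0% called), the lowest adjusted p being 0.146. By the same fit, at an unadjusted p under 0.05, 591 genes were higher (3.82%) and 451 lower (2.92%) in the high embryos, and the groups did not overlap for 347 genes that were higher (2.25%) and 255 that were lower (1.65%). The median log2 difference over all genes was 0.00. An alternative fit set each gene against log2 Prl3d1 over all 12 embryos, and it was put first for naming genes after the 4 against 4 comparison gave no call. There 95 genes rose with Prl3d1 (0.615% of those tested) and 2 fell (0.0129%). Below, adjusted p-values are those of the slope unless stated, and a slope is given as the log2 change over the distance of 3.31 between the mean log2 Prl3d1 of the groups, so that it can be set beside the log2 difference of 4 against 4. Because the embryos were ranked on a measured gene, each p measures how closely a gene went with Prl3d1 in these embryos and not the effect of a treatment. In RNA from whole embryos, fewer cells of a type and less RNA per cell cannot be told apart.

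All 95 rising genes were higher in the high embryos at an unadjusted p under 0.05, and for 80 of them (84.2%) the groups did not overlap. The middle embryos had a mean between those of the high and low groups for 92 of the 95. Since the slopes were fitted on the same embryos, these counts describe the genes and are no separate support. The slope was positive within the 7 males and within the 5 females for all 95. Choosing the genes by the slope over the same 12 embryos favoured this, so it is no separate support. With sex as a term in the slope, 55 genes passed (0.356%), among them 48 of the 95 and 33 of the 48 rising genes described below, and the other 15 are given with that p where they are described. The count was lowest, at 52, without female 3, the embryo of lowest Prl3d1, and 39 of the 95 passed without any 1 of the 12 embryos.

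Prolactin genes were the most numerous among the gene families counted. Of 22 family members other than Prl3d1 and its copies, 13 had enough signal to be tested, and 9 of these rose. Prl7a1 (chr13:27633366-27642493), a giant-cell hormone gene, was at 9587, 5512, 5291 and 3029 in the high embryos, 3855, 2826, 699.8 and 1745 in the middle embryos and 1466, 1269, 577 and 265 in the low embryos. Every high embryo was above every low embryo, and among the middle embryos male 1 was low. The log2 difference was 2.88 ± 0.51 (SE) and the slope 3.01 ± 0.29 (SE), with an adjusted p of 8.43e-05 by limma. Prl5a1, a further member of the cluster, was at 1657, 1524, 1726 and 789 in the high and 478, 607, 81.6 and 59.5 in the low embryos, with females 2 and 3 far below the other 2 (slope 3.13 ± 0.32 (SE), adjusted p = 0.000143). Prl4a1, a hormone that acts on uterine natural killer cells, was at 1562, 1968, 3019 and 1876 in the high and 1037, 983, 102 and 108 in the low embryos (adjusted p = 0.00463). The groups were apart in Prl5a1 and Prl4a1. Prl8a9 was at 1316, 2000.2, 1066 and 1036 in the high and 606, 486, 76.6 and 88.8 in the low embryos (adjusted p = 0.000651). In female 1, a middle embryo, Prl8a9 reached 2019, above every high embryo.

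Prl2c2 and Prl2c3, the proliferins, growth factors that promote vessel growth, rose as well. Prl2c3 was at 3307, 458, 326 and 395 in the high and 109, 124, 29.7 and 21.4 in the low embryos, with male 1 of the middle group, at 33.6, close to the low embryos. Prl2c2 was at 1437, 409, 358 and 261 in the high and 83.6, 103, 8.97 and 40.7 in the low embryos. Male 2 stood far above the other high embryos in both, and the groups did not overlap. Their transcripts are 99.5% identical, so their levels are uncertain as single genes, and both kept the call without male 2 (adjusted p = 0.0268 for Prl2c2). Prl2c3 passed with sex as a term (0.0292) and Prl2c2 did not (0.0555). Prl2c5 shares 96.6% of aligned bases with Prl2c2, was at 0.933, 92.8, 47.9 and 28.3 in the high and 4.48, 27.0, 0 and 0 in the low embryos and did not pass (slope 2.67 ± 1.33 (SE), adjusted p = 0.655). Prl2a1 was at 420.2 to 714 in the high and 24.0 to 254 in the low embryos, without overlap. Prl8a1 was at 77.6 to 152 in the high and 0 to 45.4 in the low embryos. Both rose, with adjusted p of 0.0117 and 0.00463, and both lost the call without female 3 (0.102 and 0.0791), as did Prl4a1 (0.0795). None of these 3 passed with sex as a term (0.117 for Prl2a1, 0.111 for Prl8a1 and 0.0555 for Prl4a1). Prl6a1, Prl3c1 and Prl7b1 did not pass. Prl6a1 was at 263, 414, 250.4 and 316 in the high and 268, 162, 0 and 13.6 in the low embryos, where female 5 overlapped the high group. Prl3c1, made mainly in the decidua, was at 278 to 1265 in the high and 117 to 351 in the low embryos. Prl7b1 stayed at or below 55.2 in every embryo. Prl3b1, placental lactogen II of later giant cells, and Ctsq, a cathepsin of later giant cells, were at 0 in all 12 embryos, where a count of 0 allows up to 3 fragments, or 2.49 to 3.40 normalized counts depending on the library.

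The gene closest to Prl3d1 in its pattern was Adm, which encodes the vasodilator peptide adrenomedullin and is strongly made by giant cells at implantation. Adm (chr7:110627661-110629820) was at 39527, 23057, 25976 and 16445 in the high embryos, 16921, 13152, 5098 and 7239 in the middle and 7677, 5816, 1736 and 1366 in the low embryos. The low group did not reach the high group, and females 2 and 3 were lowest. Its log2 difference was 2.96 ± 0.52 (SE) and its slope 3.08 ± 0.19 (SE), with the smallest adjusted p of all genes, 1.08e-06. With sex as a term the adjusted p was 3.37e-05, and without any 1 embryo it stayed at or below 7.01e-05. Of 16 genes of invasion and vascular function, 14 were tested and 3 rose, Adm, Mmp9 and Procr, with a list median of 0.55 (log2 difference) against 0.00 over all genes. Mmp9, the gelatinase by which giant cells degrade matrix, was at 3009, 2689.6, 2004 and 1190.0 in the high and 1102, 887, 86.9 and 139 in the low embryos (slope 3.04 ± 0.34 (SE), adjusted p = 0.000295). Procr, the endothelial protein C receptor that limits clotting on giant cells, was at 3161, 1102, 1178 and 1216 in the high and 695, 384, 75.9 and 169 in the low embryos, with male 2 again above the other males (adjusted p = 0.00431). Among 13 tested genes of hypoxia and glycolysis 1 rose, which was Adm, and the list median was 0.05.

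Of 19 genes in the giant-cell list 17 were tested and 6 rose, of which 3 were the prolactin genes Prl2c2, Prl2c3 and Prl4a1. Outside the prolactins 13 were tested and 3 rose, Adm, Mmp9 and Gata2, while 5 had groups that did not overlap, all higher. Over all genes tested the shares were 0.615% rising and 2.25% higher without overlap. The median log2 difference was 1.04 over the whole list and 0.77 without the prolactins. Of those 13 genes 10 had positive differences, and the lowest difference was -1.15. Gata2, a transcription factor of giant cells, was at 2428, 2354, 3102 and 2489 in the high and 1552, 758, 767 and 938 in the low embryos and rose (adjusted p = 0.0337), but 6 of the 12 embryos ended that call when left out, up to 0.138 without female 2, and with sex as a term it did not pass (0.23). Hand1, a factor required for giant-cell differentiation and also made in mesoderm, was at 5532 to 9174 in the high and 1719 to 4713 in the low embryos and did not pass (slope 0.77 ± 0.28 (SE), adjusted p = 0.49). Cdkn1c, an inhibitor of the cell cycle in endoreduplicating cells, was at 9141 to 11188 in the high and 4738 to 7561 in the low embryos, with groups apart and an adjusted p of 0.49. Ccne1, the cyclin of the endocycle, was at 25416 to 33462 in the high and 32394 to 35676 in the low embryos, ranges that overlap. Cyp11a1, the side-chain cleavage enzyme of steroid synthesis, was at 339 to 526 in the high and 157 to 342 in the low embryos (adjusted p = 0.187), and none of 10 steroid genes tested rose.

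**Figure D2:**
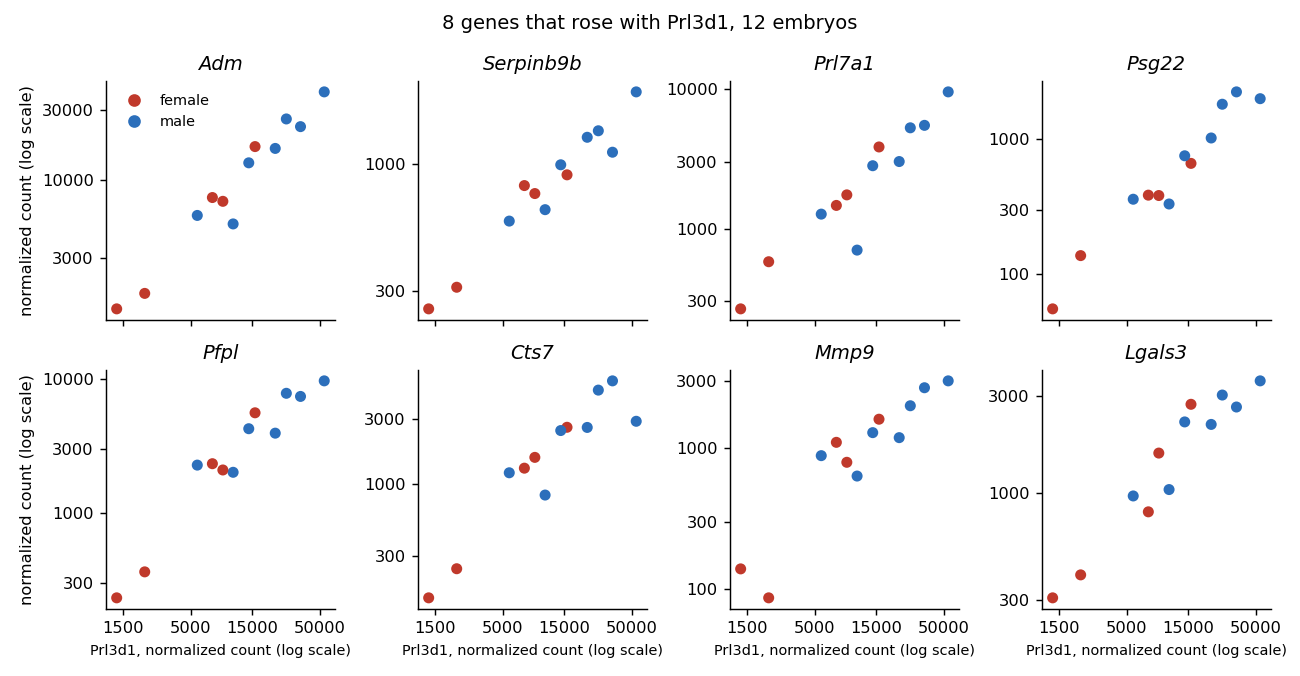
Normalized counts of 8 genes that rose with Prl3d1 against the Prl3d1 count of the same embryo, both axes on a log scale, with 1 point per embryo coloured by sex. Each gene trends upward with Prl3d1 within both colours, though not at every step, and females 2 and 3 lie at the lower left of all 8 panels.

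Elsewhere on chromosome 13, some genes of proteases and protease inhibitors rose and others did not. Cts7, a placental cathepsin of the ectoplacental cone and giant cells, was at 2875, 5649.8, 4841 and 2594 in the high and 1313, 1216, 245 and 150.3 in the low embryos (slope 3.11 ± 0.33 (SE), adjusted p = 0.000202). Cts8, its relative, was at 448 to 1364 in the high and 43.9 to 356 in the low embryos, and lost its call (adjusted p = 0.00519) without female 3 (0.0922) and with sex as a term (0.212). Ctsl, a widely made cathepsin gene on the same chromosome, did not pass (slope -0.20 ± 0.14 (SE), adjusted p = 0.785). They were the only 2 of 8 placental cathepsins tested, the other 6 being at 0 in all embryos. Ctla2a, which encodes an inhibitor of cysteine proteases, was at 6619.8, 17659.7, 10624 and 8337 in the high and 5328, 4151, 1676 and 1254 in the low embryos (adjusted p = 0.0017), with male 3 highest. Its locus overlaps Gm49391, which rose too, and reads of the 2 cannot be told apart, since no source says whether the counting used strand. Serpinb9b, a relative of the granzyme inhibitor Serpinb9, was at 1982, 1118, 1370.1 and 1288 in the high, 902, 992, 648 and 755 in the middle and 814, 581, 310.3 and 253 in the low embryos (slope 1.75 ± 0.16 (SE), adjusted p = 4.41e-05). The low group did not reach the high group. In total 5 of 10 tested genes of the Serpinb9 and Serpinb6 groups rose. Serpinb9g was at 254 to 656 in the high and 0 to 120.1 in the low embryos, and its call (adjusted p = 0.0216) was lost without female 3 (0.31), male 4 or male 5 and with sex as a term (0.142).

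Position along the genome was unequal among the rising genes. On chromosome 13 lay 21 of the 95 (22.1%), against 4.08% of the genes tested. Prl2c3 and Prl2c2 lie between 12790816 and 13005383, 7 further prolactin genes between 27345673 and 28151611, 5 Serpinb genes between 32965209 and 33496004, and Ctla2a, Cts8, Cts7 and 2 unnamed genes between 60842612 and 61358197. Btn2a2 and Phactr1 are the other 2. Chromosome 7 held 12 of the 95 (12.6%), against 8.2% of the genes tested. Its Psg and Ceacam genes encode immunoglobulin-fold glycoproteins, of which trophoblast secretes the Psg proteins into the maternal circulation. In these families 4 of 7 tested genes rose. Psg22 (chr7:18718090-18727248) was at 1994, 2239, 1814 and 1020.2 in the high, 662, 753, 331 and 382 in the middle and 385, 359, 137 and 55.4 in the low embryos (slope 3.26 ± 0.23 (SE), adjusted p = 5.22e-06). The high embryos were above all 8 others, and the middle and low groups overlapped. Psg29 was at 1772 to 4770.4 in the high and 145 to 1021 in the low embryos (adjusted p = 0.000434). Ceacam15 was at 691 to 2036 in the high and 10.9 to 589.6 in the low embryos, and 3 embryos, female 3, male 3 and male 5, ended its call (adjusted p = 0.0216) when left out, up to 0.102, as did sex as a term (0.319).

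Several rising genes are known from the ectoplacental cone and from trophoblast in general. Pfpl, a perforin-like gene of the ectoplacental cone, was at 9606, 7358, 7763 and 3923 in the high, 5560.1, 4234, 2007 and 2089 in the middle and 2326, 2270.4, 365 and 234 in the low embryos (slope 3.38 ± 0.26 (SE), adjusted p = 8.07e-06). Plet1, a surface protein of placental progenitors, was at 10886, 6142, 6119.9 and 5248 in the high and 2804, 1363, 870.2 and 1052 in the low embryos (adjusted p = 0.000165), and it was the 1 gene that passed in the slope within the 7 males (slope 3.03). The groups were apart in both genes. Plac8, a small cysteine-rich protein of placenta, was at 3404 to 4716 in the high and 1140.0 to 2366 in the low embryos (adjusted p = 0.000295). Of 12 genes in the list for ectoplacental cone and spongiotrophoblast 10 were tested, and 2 rose, Ets2 and Krt8, with a list median of 1.09. Ets2, a factor needed by trophoblast, was at 3909 to 5353 in the high and 2414 to 3540.2 in the low embryos (adjusted p = 0.0328), and its call was lost without any 1 of 6 embryos, up to 0.188, and with sex as a term (0.62). The other members named here did not pass. Ascl2, the ectoplacental cone progenitor factor, was at 625 to 1269 in the high and 253 to 503 in the low embryos (adjusted p = 0.566). Phlda2, an imprinted growth inhibitor, was at 24534 to 35609 in the high and 6932 to 27427 in the low embryos, and the highest embryo of all was male 7 of the middle group at 59617. Tpbpa, the standard marker of spongiotrophoblast, stayed at or below 42.5 in every embryo.

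Of 4 keratin genes of simple epithelia described here, 2 rose. Krt8 was at 46752 to 59027 in the high and 37047 to 44512 in the low embryos, a log2 difference of 0.38. Krt7 was at 4206 to 7972 in the high and 2152 to 4364 in the low embryos, a log2 difference of 1.06. Both rose (adjusted p = 0.03 and 0.0139), but 5 embryos ended the call of Krt8 and 2 that of Krt7 when left out (up to 0.184 and 0.0869), and neither passed with sex as a term (0.545 and 0.151). Krt18 and Krt19, at log2 differences of 0.25 and 0.96, did not pass (adjusted p = 0.239 and 0.0796). Among genes of the extraembryonic ectoderm, from which trophoblast is renewed, Tfap2c alone of 11 tested rose. The list had a median log2 difference of -0.23, with single genes from -2.69 to 1.41 and 4 of the 11 positive. At an unadjusted p under 0.05 in 4 against 4 by limma, 1 of the 11 was higher and 2 were lower. Over all genes tested the shares were 3.82% and 2.92%. Tfap2c was at 2954, 2737, 4888 and 3236 in the high and 2711, 1093, 1077 and 794 in the low embryos (adjusted p = 0.0273), with female 5 close to the high group, and 4 embryos ended its call when left out (up to 0.191). Eomes, also a streak gene, was at 8952, 21175, 13516 and 15070.3 in the high and 22877, 25616, 23901 and 22774 in the low embryos. Every high embryo was below every low embryo, and Eomes did not pass (slope -0.74 ± 0.33 (SE), adjusted p = 0.611).

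Pthlh, the parathyroid-hormone-like peptide that acts on parietal endoderm, was at 128, 183, 224 and 174 in the high and 23.6, 22.6, 0 and 0 in the low embryos (adjusted p = 0.000558). C3ar1, a complement receptor, was at 235, 225, 289 and 65.8 in the high and 47.1, 31.7, 0 and 0 in the low embryos (adjusted p = 0.000651). Dll4, a Notch ligand, was at 538, 146, 261 and 273 in the high and 72.9, 31.7, 18.9 and 0 in the low embryos (adjusted p = 0.00208). In these 3 genes every high embryo was above every low embryo, and 1 or 2 of the low embryos were at 0. Nppb, natriuretic peptide B, was at 440.0 to 978 in the high and 7.32 to 245 in the low embryos (adjusted p = 0.00148). Itgb3, an adhesion receptor subunit, was at 619.8 to 2034 in the high and 21.9 to 222 in the low embryos (adjusted p = 0.00495). In both genes the 4 high embryos held the 4 highest values of all 12. Fosl1, an AP-1 subunit of giant cells, was at 669 to 1659 in the high and 65.6 to 435 in the low embryos (adjusted p = 0.000651). Sult1e1, Lhx6, Tnfrsf23, Jak3 and Ctsk rose (adjusted p from 0.00463 to 0.0436), but each lost its call without 1 or more embryos, up to 0.284 for Tnfrsf23 and 0.243 for Ctsk without female 3, 0.212 for Lhx6 and 0.0891 for Jak3 without the same embryo and 0.142 for Sult1e1 without female 2. Sult1e1 passed with sex as a term (0.00889), and Lhx6 (0.0549), Tnfrsf23 (0.132), Jak3 (0.108) and Ctsk (0.0852) did not. Mapk15 and Mmp1a had groups that did not overlap and log2 differences of 4.11 and 4.02 and did not pass (adjusted p = 0.421 and 0.142).

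By Pearson correlation of log2 values over the 12 embryos, the 8 genes most like Prl3d1 were Adm (0.976), Psg22 (0.975), Serpinb9b (0.972), Anxa1 (0.968), Pfpl (0.963), Lgals3 (0.958), Prl7a1 (0.943) and Arhgdib (0.943). Their Spearman correlations lay between 0.909 and 0.958. Without females 2 and 3, the embryos farthest from the median Prl3d1, r lay between 0.881 and 0.943. Lgals3, which encodes the lectin galectin 3, was at 3568, 2656, 3040.1 and 2182 in the high and 813, 973, 399 and 308 in the low embryos. Lgals1, galectin 1, was at 5397 to 8375 in the high and 1739 to 3671 in the low embryos. Anxa1 was at 1162, 647, 677 and 638 in the high and 385, 185, 135 and 78.6 in the low embryos. Anxa2, like Anxa1 an annexin that binds membranes in the presence of calcium, was at 3751 to 4006 in the high and 998 to 2457 in the low embryos. The groups were apart in all 4 genes. Arhgdib was at 882 to 1472 in the high and 179.8 to 539.9 in the low embryos. All of these rose (adjusted p from 3.78e-05 for Lgals3 to 0.000651 for Lgals1). Gm2a, a cofactor of ganglioside breakdown, rose as well (adjusted p = 0.0017). Galectins rose in 3 of 7 tested and annexins in 2 of 10.

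Genes of 3 other tissues of the implantation site, maternal decidua, blood and endothelium, had higher members in the high embryos, and their part in the results above was not tested. The list for maternal decidual stroma had a median log2 difference of -0.06 over 19 tested genes. Its summed level was 92018 to 123544 in the high, 87243 to 100858 in the middle and 81812 to 94248 in the low embryos. Gja1 was the largest member of that sum, with means of 52270 in the high and 50802 in the low embryos. Prl8a2 was the member whose means differed most, at 24790 and 6116, so the sum does not speak for the list as a whole. Of these 19 genes 5 were higher and 0 lower at an unadjusted p under 0.05 in 4 against 4 by limma. Over all genes tested the shares were 3.82% and 2.92%. The 5 were Prl8a2, Prl3c1, Cryab, Htra3 and Aoc1, and Prl8a2 and Cryab rose in the slope. Prl8a2, decidual prolactin-related protein, was at 11629.7, 41907, 27880.1 and 17745 in the high, 19292, 13863, 9372 and 9389 in the middle and 10831, 7424, 3811 and 2397 in the low embryos (slope 2.10 ± 0.31 (SE), adjusted p = 0.00281, and 0.0637 without female 3). Cryab, a small heat shock protein of decidual cells, was at 1979, 2131, 2293 and 2857 in the high and 2733, 995, 756 and 468 in the low embryos, with female 5 inside the high range (adjusted p = 0.0245, and 0.335 without female 3). Htra3, a serine protease, was at 56.1 to 155 in the high and 9.91 to 73.4 in the low embryos, a log2 difference of 1.66 (adjusted p of the slope = 0.684). Aoc1, a diamine oxidase, was at 444 to 882 in the high and 232 to 678 in the low embryos, a log2 difference of 0.94 (adjusted p of the slope = 0.349). Gja1, a gap junction gene, was at 50097 to 55382 in the high and 48042 to 56193 in the low embryos. Pgr, the progesterone receptor, was at 149 to 319 in the high and 150.1 to 521 in the low embryos. Hoxa10, a uterine homeobox gene, was at 65.9 to 157 in the high and 53.8 to 263 in the low embryos. Des, the intermediate filament of decidual cells, was at 1135 to 1753 in the high and 1268 to 1727 in the low embryos. The groups overlapped in each of these 6, and Htra3, Aoc1, Pgr, Hoxa10 and Des were picked after their values were seen.

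Adult globins had positive log2 differences, with a median of 1.68 over 4 genes. Hba-a1 was at 1772, 3062, 3254 and 1672 in the high, 3412, 1234, 679 and 2960.3 in the middle and 2794, 510.0, 1081 and 142 in the low embryos. Hbb-bs was at 1145 to 1976 in the high and 158 to 1858 in the low embryos. The groups overlapped through female 5, and neither gene passed (adjusted p = 0.218 and 0.187), although both did with sex as a term (0.0147 and 0.00799). The other 4 genes of the blood list were not tested, and its summed level was 3894 to 7197 in the high and 414 to 6254 in the low embryos. None of 8 tested leukocyte genes and none of 6 tested genes of uterine epithelium rose, and 10 of the 18 leukocyte genes, the pan-leukocyte gene Ptprc among them, were below the filter. The leukocyte list had a median log2 difference of 0.59, with 6 of the 8 positive. In 1 gene the groups were apart, higher, against 2.25% over all genes tested. For uterine epithelium the median was -0.48, with 2 of the 6 positive. The leukocyte sum was 564 to 1269 in the high and 342 to 1105 in the low embryos, which overlap.

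Among 8 endothelial genes tested, 2 rose. Cdh5, the cadherin of endothelial junctions, was at 639, 651, 445 and 365 in the high and 229, 122, 20.9 and 1.04 in the low embryos (slope 4.62 ± 0.56 (SE), adjusted p = 0.000617). Esam, an adhesion molecule of the same junctions, was at 522 to 1676 in the high and 93.3 to 339 in the low embryos (adjusted p = 0.00111). Pecam1, of the same cells, was at 427 to 1871 in the high and 0 to 259 in the low embryos with male 2 far above the others and did not pass (adjusted p = 0.0647). The median log2 difference of the list was 0.10, with 4 of the 8 positive. Mean levels in the high and low embryos were 4685 and 5103 for Kdr, 4749 and 5278 for Egfl7, and 88.8 and 185 for Eng. At an unadjusted p under 0.05 in 4 against 4 by limma, 3 of the 8 were higher and 1 was lower. Over all genes tested the shares were 3.82% and 2.92%. Parietal endoderm, which lies against the giant cells, showed no gene that rose among 14 tested, and its median was 0.25. Lamb1, a laminin chain, was at 15989, 17759, 13071 and 46852 in the high and 47035, 18774, 10958 and 12326 in the low embryos, with male 4 and female 5 far above the rest, 1 from each group. Ctsl was at 30905 to 42719 in the high and 28338 to 47843 in the low embryos.

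**Figure D3:**
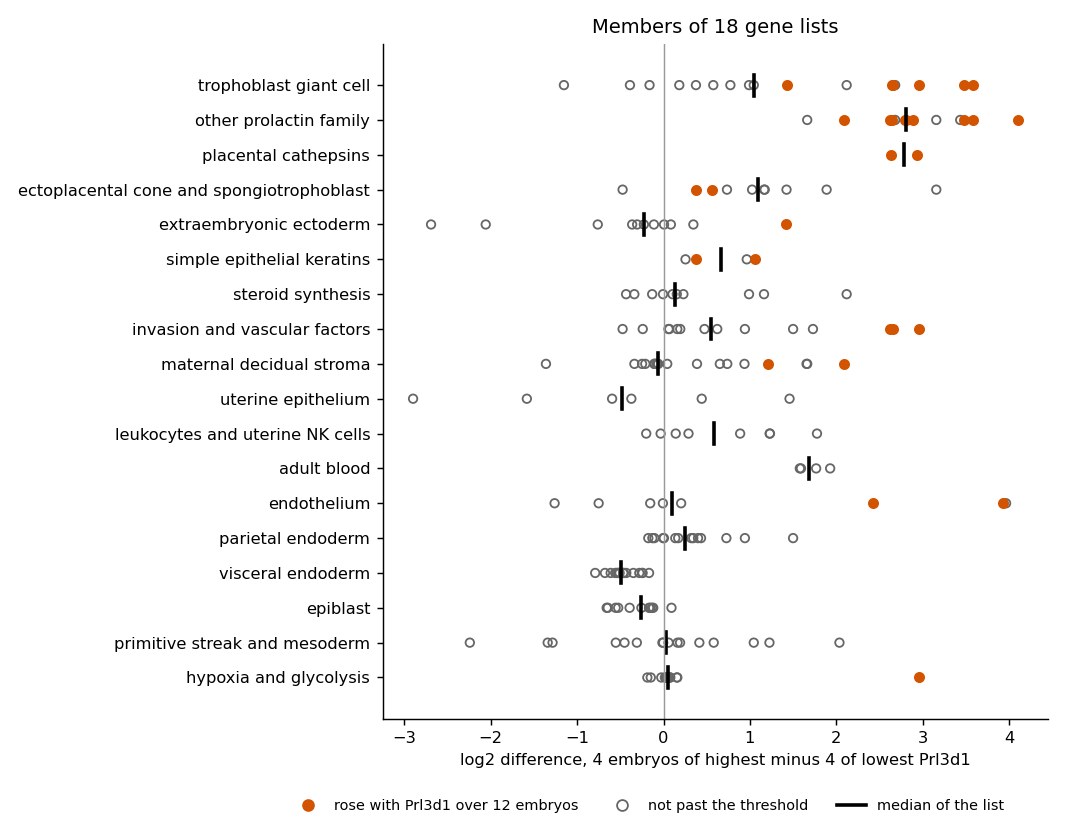
Log2 difference of the high minus the low embryos (x axis) for each tested member of 18 gene lists (y axis), as 1 point per gene; filled points rose with Prl3d1 over 12 embryos and black bars are list medians. The prolactin and cathepsin lists lie to the right with medians of 2.80 and 2.79, and visceral endoderm lies to the left of 0 with a median of -0.49. Some genes stand in more than 1 list.

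Listed genes of visceral endoderm, epiblast and primitive streak included none that passed in either direction. All 16 visceral endoderm genes had negative log2 differences, from -0.79 to -0.17, and in none of them were the groups apart. With sex as a term in 4 against 4, where male 6 alone stood for low males, 14 of the 16 differences were positive, among them those of Apoe (0.17) and Apoa1 (0.70), while the slopes with sex as a term were all negative. Apoe was at 82646, 110773, 99187 and 115183 in the high and 124397, 89593, 124066 and 164717 in the low embryos. Apoa1 was at 42727 to 115572 in the high and 46617 to 158469 in the low embryos. The groups overlapped in both, and male 6 had the lowest level of each among the low embryos. Afp was at 8110.0 to 13244 in the high and 10044 to 16146 in the low embryos (adjusted p = 0.483). These 3 genes encode carrier proteins that visceral endoderm secretes. Among the 11 epiblast genes 10 had negative differences, with a median of -0.26. Within the 7 males 1 of the 11 slopes was positive (median -0.51), and within the 5 females 9 were (median 0.18). Dnmt3b, the de novo DNA methyltransferase, was at 176850.0 to 207086 in the high and 199243 to 245055 in the low embryos. Utf1, a chromatin factor of pluripotent cells, was at 21708, 25275, 24301 and 22261 in the high and 29775, 32553, 30215 and 30096 in the low embryos, with groups apart (log2 difference -0.39 ± 0.06 (SE), adjusted p of the slope = 0.594).

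Genes of the primitive streak split in both directions without passing. Gsc, the homeobox gene of the anterior streak, was at 228, 1696, 253 and 550.5 in the high, 2547, 120.2, 2861 and 2222 in the middle and 2592, 2037, 2354 and 2191 in the low embryos, a log2 difference of -2.24 ± 0.53 (SE). Every high embryo was below every low embryo, yet the lowest of all 12 was male 7, which ranked sixth by Prl3d1. Fgf8, a streak growth factor, was at 1471, 5895, 2069.8 and 2512 in the high, 7877, 776, 7481 and 6062 in the middle and 6974, 7006, 6231 and 6108 in the low embryos. Lefty1, a Nodal antagonist, was at 2.80, 425, 24.5 and 33.7 in the high, 1344, 0, 1451 and 722 in the middle and 1816, 462, 449.8 and 723 in the low embryos. Both had the form of Gsc, with groups apart and male 7 lowest. Mixl1, a homeobox gene of nascent mesendoderm, was at 4951, 21442, 5426 and 10859.8 in the high and 28789.9, 16577, 20905 and 22106 in the low embryos, where male 3 overlapped the low group. In the opposite direction T, the Brachyury gene, was at 9486, 6126, 8920.2 and 8336 in the high and 4344, 5925, 6228 and 5385 in the low embryos with male 7 at 14152. Tbx6, of presomitic mesoderm, was at 649 to 1981 in the high and 335 to 713 in the low embryos with male 7 at 2062. Male 3 lay within the low range for Tbx6, and the groups overlapped in both genes. Lefty2, a further Nodal antagonist, was at 35831 to 47644 in the high and 30086 to 31225 in the low embryos with groups apart. The slope on Prl3d1 did not pass for any of these 7 genes (adjusted p from 0.49 to 0.655). Leaving out male 3 gave adjusted p of 0.028 for both Gsc and Fgf8 in the 4 against 4 comparison. Within the 5 females the slope had the opposite sign to the log2 difference in 6 of the 7 genes, all but Tbx6. There the slope of Gsc was 0.15 and that of Mixl1 0.27, and within the 7 males -2.43 and -1.55. Those differences between the sexes did not pass as an interaction, for which no gene reached an adjusted p of 0.05 by limma and 561 had an unadjusted p under 0.05.

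**Figure D4:**
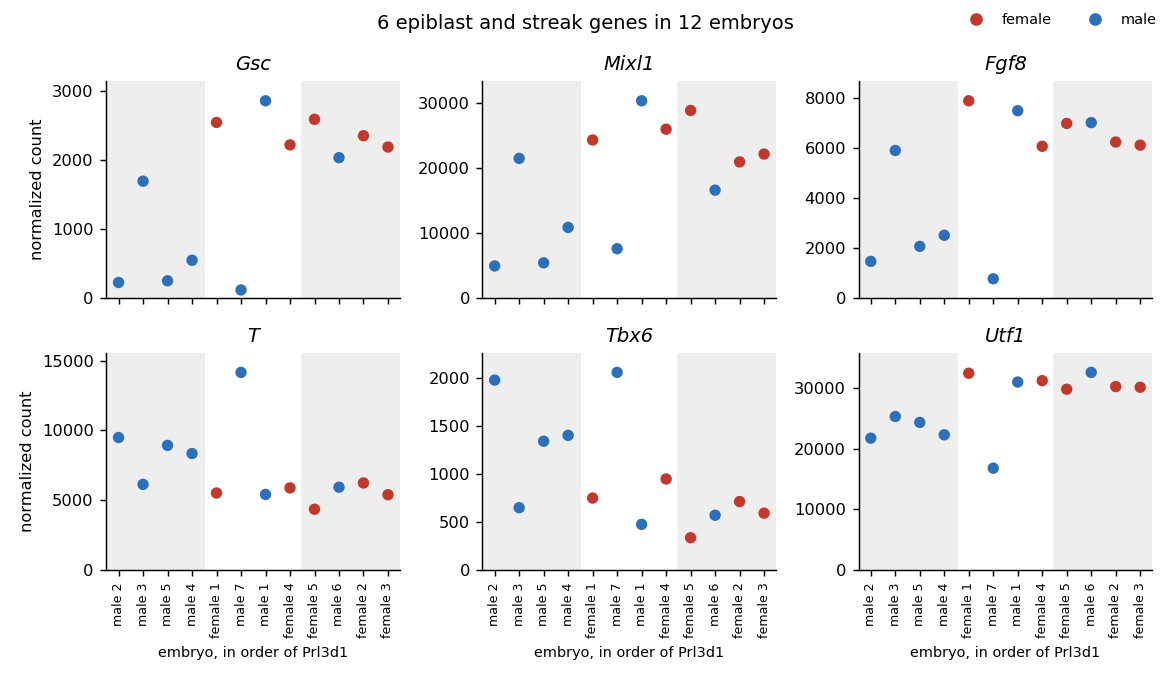
Normalized counts of 6 epiblast and streak genes (y axes from 0) in the 12 embryos in order of Prl3d1, as 1 point per embryo coloured by sex; shading marks the high and low groups. Males 2, 5, 4 and 7 lie low for Gsc, Mixl1 and Fgf8 and high for T and Tbx6, while male 3, second by Prl3d1, lies nearer the other embryos.

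At an adjusted p of 0.05, 2 genes fell with Prl3d1. Lrig3, a membrane protein with leucine-rich repeats, was at 1985, 2697, 2479 and 2523 in the high, 3167, 2063, 3072 and 3153 in the middle and 3411, 3887, 3863 and 4326 in the low embryos and fell (slope -0.65 ± 0.12 (SE), adjusted p = 0.0186). Rreb1, a zinc finger factor that acts downstream of Ras, was at 942, 1199, 1246 and 1167 in the high and 1867, 1945, 1760.0 and 2097 in the low embryos and fell (slope -0.69 ± 0.13 (SE), adjusted p = 0.0252). Neither passed with sex as a term (0.339 and 0.387) or without female 3 (0.117 and 0.126). The largest negative log2 differences with groups apart were those of Duox2 (-4.85), Ptpro (-4.51), Cpne6 (-4.48), Lefty1 (-4.39), Thsd4 (-2.92), Rapgefl1 (-2.89), Gsc (-2.24), Pmepa1 (-2.06), Prrt2 (-2.03), Stra6l (-1.92), Sybu (-1.77) and Dmrt1 (-1.77), and none of them passed. Pmepa1, a target of TGF-beta and Nodal signals, was at 122 to 383 in the high and 652 to 1024 in the low embryos. Stra6l was at 54.1 to 127 in the high and 269 to 363 in the low embryos.

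Sex moved with the ranking, so slopes were also fitted within each sex, and litter entered as a random block. All 4 high embryos were male, and among the 7 males Prl3d1 ran from 5620.1 to 54012, among the 5 females from 1336 to 15735. Within males the slope of Adm was 3.09 and within females 3.43. For Prl7a1 the slopes were 3.46 and 3.32, for Serpinb9b 1.73 and 1.88, and for Mmp9 2.18 and 3.95. In these smaller fits 1 gene passed within males and 9 passed within females. Litter 6 alone spanned both groups, and its male 5 was above its litter mates male 6 and female 3 in all 95 rising genes, an order that was part of how these genes were chosen. With litter as a random block the slope gave 96 rising genes, at an estimated correlation within litters of 0.00602. Sequencing depth, in units of 1000000 fragments, was 92.4 to 114 in the high and 83.0 to 97.1 in the low embryos. Mitochondrial transcripts made up 0.492% to 0.670% and 0.544% to 0.664% of counts, ranges that overlap.

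**Figure D5:**
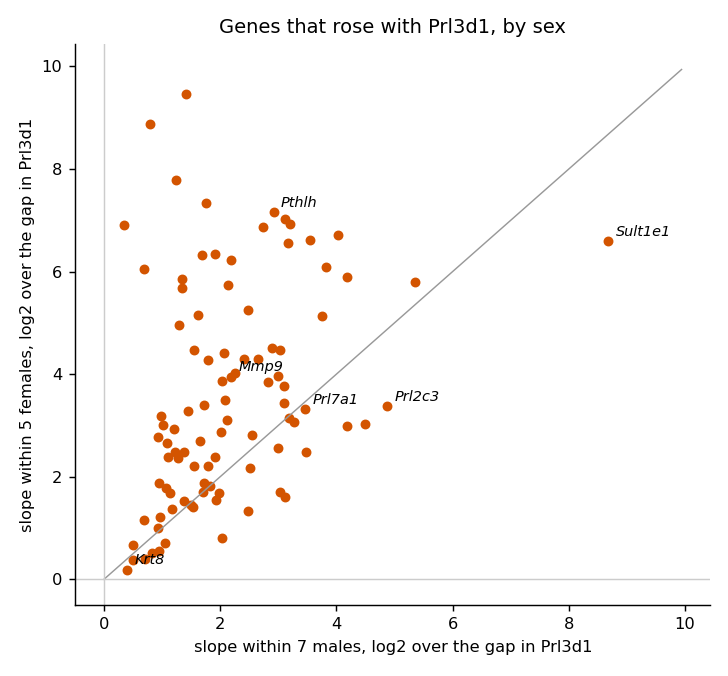
Slope within the 7 males (x axis) against slope within the 5 females (y axis) for the 95 genes that rose with Prl3d1, both as log2 change over the gap in Prl3d1 between the groups; the line marks equal slopes. All 95 points lie above 0 on both axes, and the genes were chosen by the slope over all 12 embryos.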

How the data were processed

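RNA of 12 whole mouse embryos at embryonic day 7.0 was measured after amplification from very low input, per the labels' protocols. Tools in the submitters' processing notes are DESeq2 1.34.0, Salmon 1.5.2, STAR 2.7.7a and cutadapt 4.1, with mm10 as the build. The authors deposited per embryo a log2 value, variance-stabilized by its form and never under 10.4141, and a mean signal per gene. Their log2 fold change and p-value columns, also deposited by the authors, compare the sexes and were not used. The transformation was inverted to normalized counts, whose mean equalled the deposited mean signal for 98.95% of 25451 genes within a relative 1e-06. Whole reads were not recovered (83.76% to 86.22% of low values whole within 0.1), so no count model was used. Libraries held 83.0 to 114.4 fragments in units of 1000000, and floors of 3 fragments cover counting error only. Amplified fragments are not independent molecules.

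Autosomal genes were tested on log2(normalized count + 1) by limma 3.58.1 (R 4.3.3) with its trend option, two-sided, with Benjamini-Hochberg adjustment over all 15451 genes that had at least 10 normalized counts in at least 4 of the 8 embryos compared. The pseudocount can understate changes of low genes. Values at or near 0 in 1 group can instead make a log2 difference larger than the log2 ratio of the group means. Ctsk, for example, had means of 274 in the high and 83.2 in the low embryos and a log2 difference of 4.19. Genes were placed by GENCODE and RefSeq annotations of GRCm38, coordinates counting from 1. The 4 against 4 fit was tested on simulated data, and the slope was not. Alternatives changed the pseudocount to 5, the filter, the scale, the genes, the samples, and added sex, litter or a slope on Prl3d1.

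The embryo groups, gene lists and tests were chosen with earlier results of these data known. Up to 12 genes per direction were chosen by size among those with groups apart and a mean of at least 50. Further choices were the prolactin and giant-cell lists, 3 or 4 members of the other lists and the 8 genes most like Prl3d1. Not all members of the giant-cell and other lists so chosen are described above. Gm and Rik symbols were counted. Ascl2, Tpbpa, Krt19, Pecam1, Kdr, Eng, Htra3, Aoc1, Pgr, Hoxa10, Des, Afp, Utf1, T, Tbx6 and Fgf8 were named after their values were seen. So were genes named only for passing in the slope.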

Additional observations from a re-analysis of the deposited data

Results flagged for a closer look

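The check covered 102 of the genes named above in each group of 4 embryos, 306 groups in all. Sought was an embryo whose gap to the nearest of the other 3, as a share of the group's range, exceeded Dixon's 95% critical value. This found 33. The critical value assumes independent, normally distributed values, while these are untransformed counts of related genes, so 33 cannot be set against a chance rate. Values are normalized counts. Male 2 stood above the other high embryos for Prl2c3 (3307 against 326 to 458), Prl2c2 (1437 against 261 to 409), Plet1 (10886 against 5248 to 6142), Procr (3161 against 1102 to 1216), Itgb3 (2034 against 619.8 to 803), Pecam1 (1871 against 427 to 536) and Anxa1 (1162 against 638 to 677). Other high embryos set apart were male 5 for Ctsk (356) and Ptpro (8.37), male 4 for Lamb1 (46852), Duox2 (45.03) and Cpne6 (9.53), male 3 for Lefty1 (425), and male 2, below the rest, for Aoc1 (444 against 840 to 882).

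In the middle group male 7 stood apart for Phlda2 (59617 against 19188 to 22849), T (14152 against 5405 to 5873), Utf1 (16760 against 30963 to 32416), Lrig3 (2063 against 3072 to 3167), Thsd4 (135) and Prrt2 (7.11), and female 1 for Krt7 (6108) and Ptpro (46.0). In the low group male 6, its only male, stood apart for Afp (10044), Dnmt3b (245055), Utf1 (32553), Pmepa1 (652), Prl2c5 (27.0) and Prl7b1 (5.65). Female 5 stood apart for Tfap2c (2711 against 794 to 1093), Sult1e1 (25.8) and Lhx6 (11.1), and female 2 for Ptpro (148) and Rapgefl1 (121). Female 5 ranked ninth by Prl3d1, the nearest of the low embryos to the middle.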

How the results depend on the processing

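In the 4 against 4 comparison no gene passed, higher or lower, with a pseudocount of 5, with no filter, with a mean of at least 50, with the deposited values, with genes of all chromosomes or with the middle group in the fit. With sex as a term 8 genes passed as higher and 0 as lower, Hand1 and Phlda2 among them, and there male 6 alone stood for low males. The slope gave 95 and 2, with litter as a random block 96 and 2, with sex as a term 55 and 0, within males 1 and 0, and within females, a fit added after seeing the data like the other slope settings below, 9 and 0. With a pseudocount of 5 the slope gave 94 and 2, and with a mean of at least 50 it gave 91 and 2. Leaving out 1 embryo gave 0 to 6 higher and 0 to 2 lower genes in 4 against 4, the 6 without female 5 and the 2, Gsc and Fgf8, without male 3. In the slope it gave 52 to 96 rising and 0 to 6 falling genes, with 63 rising without female 2 and 61 without male 5, and falling counts of 0 without female 3, 1 without male 2 or male 5 and 6 without male 6. No slope of the 95 rising genes changed sign when 1 embryo was left out, which choosing them by the slope over all 12 favoured. Of the 95, 39 kept the call in every one of these fits.

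For 99 of the genes named above, 43 values in 21 genes changed sign against 4 against 4. None of these values was past the threshold in either fit, and the cause was not tested. With sex as a term the log2 difference became -0.31 for Prl2c5, -0.11 for Gja1, 0.72 for Pgr, 0.72 for Hoxa10, 0.0366 for Des, 0.31 for Ctsl, 0.17 for Apoe and 0.70 for Apoa1. The slope with sex as a term was 0.0403 for Ccne1, -0.0308 for Gja1, 1.06 for Hoxa10, 0.20 for Des and 0.0317 for Dnmt3b. Within males it was 0.000587 for Ccne1, -0.0593 for Gja1, 0.32 for Pgr and 0.19 for Hoxa10, and over 12 embryos 0.0125 for Hoxa10, and 0.0120 with litter as a random block. Within females it was -0.0826 for Cdkn1c, 0.0738 for Ccne1, -0.43 for Phlda2, -0.00683 for Gja1, 1.79 for Hoxa10, 0.40 for Des, 0.21 for Dnmt3b, 0.0780 for Utf1, 0.15 for Gsc, 1.15 for Lefty1, 0.27 for Mixl1, -0.0994 for T, -0.13 for Lefty2, 0.26 for Fgf8 and 0.20 for Cpne6. Leaving out 1 embryo gave values from -0.38 to 0.21 for Pgr, from -0.36 to 0.40 for Hoxa10 and from -0.26 to 0.58 for Lamb1.

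No paired analysis was possible because replicate numbers only name embryos within a sex and the groups compared come from the Prl3d1 rank. Depth limits genes near the floor of 2.49 to 3.40 normalized counts, such as Prl7b1 and Cpne6.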
